A study of Mus musculus with 16 samples.

Results

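Demyelination of the corpus callosum, the large white matter tract that joins the hemispheres, was compared between 4 and 2 weeks of cuprizone (CPZ) feeding. CPZ is a copper chelator that kills oligodendrocytes, the cells that make myelin, and the comparison asks how the tissue's transcripts differ between a later and an earlier time of demyelination. The comparison covered the 7 arrays whose titles name 4 weeks (4 arrays) or 2 weeks (3 arrays) of CPZ, out of 16 arrays in the series, and all probes were used. The mice were male wild-type C57BL/6, included at 7 to 8 weeks of age. Their powdered chow held 0.2% CPZ according to the methods and 0.2 to 0.4% according to the labels. The 3 untreated samples, from mice on normal diet that the methods give as matched in age and sex to the 4-week mice, served as a reference level and helped to estimate the spread. If all mice started CPZ at the same age, the 2-week mice were younger when sampled than both other groups, and time on CPZ and age cannot be told apart. The corpus callosum was cut out of frozen sections, so each array holds the RNA of the whole tissue. A lower level of a cell type's genes can then mean fewer such cells or less RNA per cell, and these cannot be told apart. The methods give 3 to 6 mice per condition, but the labels tie no array to a mouse, so p-values measure the spread between these arrays.

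In this model oligodendrocytes die within the first weeks, microglia (the resident phagocytes of the brain) and astrocytes respond and clear debris, and oligodendrocyte precursors divide and begin to replace the lost cells while the drug is still fed. The genes of the cell cycle are switched on together in dividing cells. The tumour suppressor p53 acts against them, partly by inducing Cdkn1a (p21), an inhibitor of the kinases that drive the cycle.

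Each value is a log2 level, set relative to the 75th percentile of its array, and a difference is the 4-week mean minus the 2-week mean on that scale. The defining myelin gene Mbp was well above background on all 10 arrays. The neuron gene Camk2a was as well (4.76 to 6.69), so detection of Mbp cannot tell the labelled tissue from neighbouring brain tissue. All 4-week arrays had fewer probes well above background (59.2 to 66.2%) than all 2-week arrays (69.1 to 69.7%). The untreated array 1 and the 4-week arrays 2 and 3 stood apart, with correlations of 0.975 to 0.981 to each other and of 0.866 to 0.953 to the other 7 arrays. Values without these 3 arrays are given beside many of the results. The arrays lay on 4 slides. Slide 4 was the only one with both times of CPZ, namely the 2-week array 2 and the 4-week arrays 2 and 4. The 2-week arrays 1 and 3 lay on slide 1, which held no 4-week array, so time and slide cannot be fully told apart. Differences within slide 4 are given without a test and rest on a single 2-week array. That array had the lowest median level of its group for cell division (−1.26), myelin (−4.71) and choroid plexus (−1.05) genes, relative to the untreated mean.

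Limma's test ran on 27506 probes of 20404 genes, and 3 genes were called, meaning a difference of 2-fold or more with an adjusted p under 0.05. That is 0.0147% of the genes tested, and all 3 were lower at 4 weeks. Without the untreated array 1, 7 genes were called higher and 29 lower. By the unadjusted p, with the same threshold of 0.05, 4.91% of genes were higher and 6.38% were lower. Every 4-week array lay above every 2-week array for 5.82% of genes and below for 9.41%. The median difference over all genes was −0.02. The comparison therefore held few differences that passed the test gene by gene, and the groups of genes below are read against these shares.

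Sprr4, a small proline-rich protein of the kind that builds the envelope of keratinocytes, stood at −3.40, −3.62 and −3.77 at 2 weeks. At 4 weeks it stood at −6.29, −5.90, −6.71 and −6.41, and at −6.45, −5.99 and −6.07 in untreated mice. Only the 2-week arrays were thus well above background. The difference was −2.73 (standard error 0.23, limma's adjusted p = 0.0169), which is at least a 1.92-fold lower signal at 4 weeks once the detection limit is counted.

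The other 2 called genes had the same shape. The unnamed gene 4933430I17Rik had 2-week levels of −3.40, −3.50 and −4.01 and 4-week levels from −6.74 to −5.77, with a difference of −2.78 (standard error 0.26, limma's adjusted p = 0.0256) or at least 1.87-fold. The transcript AK047920, which has no gene name here, had 2-week levels of −2.88, −3.13 and −4.28 and 4-week levels from −6.75 to −6.42, with a difference of −3.17 (standard error 0.31, limma's adjusted p = 0.0256) or at least 2.15-fold. None of the 3 was well above background on any untreated array. With another background correction (normexp with an offset), which compresses dim signals, the 3 differences shrank to −0.23, −0.17 and −0.24 and no gene was called. All 3 calls were also lost with the slide as a fixed block (limma's adjusted p = 0.187 for each), with the replicate block, with the methods' test and without the untreated array 2, the 2-week array 1 or 2, or the 4-week array 3 or 4, each left out alone.

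**Figure D1:**
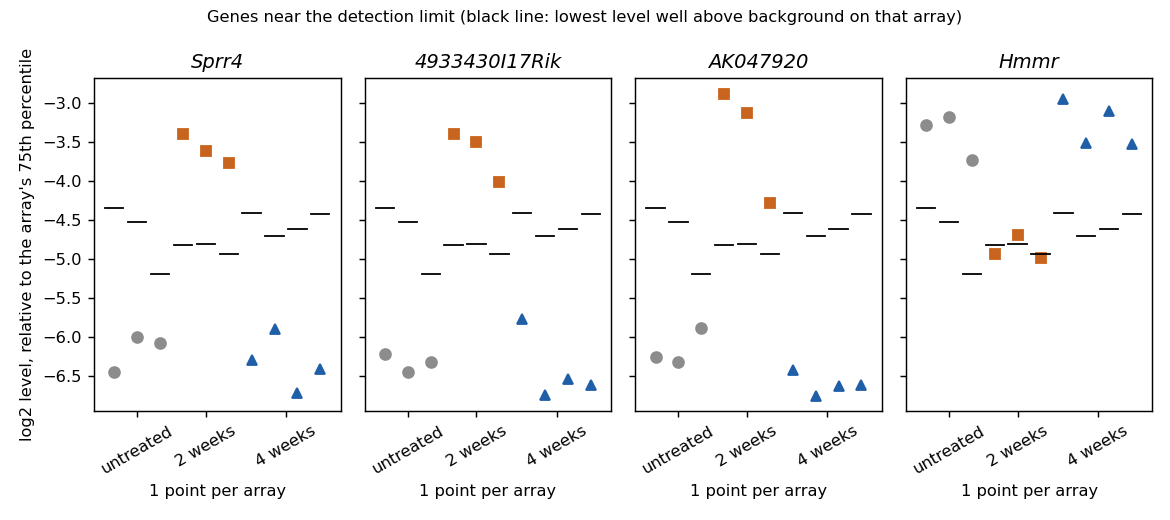
Log2 level of the 3 called genes and of Hmmr on each of the 10 arrays (grey circles untreated, orange squares 2 weeks, blue triangles 4 weeks of CPZ), with the lowest level well above background on that array as a black line. Sprr4, 4933430I17Rik and AK047920 sat above the line at 2 weeks only, at −4.28 or higher, while Hmmr sat well above it in the other 2 groups, with a 2-week array at −4.69 just over the line but not marked well above background.

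Other probes shared part of this pattern. Of all 41174 probes, 482 were well above background on all 2-week arrays and on no 4-week array, and 42 of them were on no untreated array either. By contrast, 7 probes had the reverse pattern. These 7 stood for Diaph3, Fam83a, Cdkn3, BC003460, Hmmr and the unnamed AK088907 and AK015030, and all were well above background on at least 1 untreated array and at least 5 of the 6 remyelination arrays. The lower share of detected probes on the 4-week arrays, given above, goes in the same direction as the first count, and its part in it was not tested.

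Genes of cell division were the clearest group, and they were higher at 4 weeks. Of the 20 tested genes of this list, 18 were higher and 11 (55.0%) were higher at an unadjusted p under 0.05, against 4.91% of all genes, and 0 were lower at that level. For 10 of the 20, every 4-week array lay above every 2-week array. The median difference of the list was 0.72. The adjusted p of each member was 0.152 or more, so no single member passed the test.

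The promoters of the cell division genes are shown because these genes were higher together. Genes expressed in G2 and mitosis are known for a pair of promoter elements, the CCAAT box and the cell cycle genes homology region, here searched as the letters CCAAT and TTTGAA on both strands. The RefSeq sequences on GRCm38.p6 reach from 250 bases before to 50 bases after the start, and 18 of the 20 genes had one. Of the 9 genes higher at 4 weeks with a sequence, 6 (66.7%) held both motifs, and of the 9 other tested members 4 (44.4%) did, against 7.97% of the 27025 genes with a sequence. With or without the other motif, CCAAT was found for 41.1% and TTTGAA for 20.2% of all genes. CCAAT was found for 7 of the 9 higher genes (77.8%) and for 9 of the 9 others (100%). Of the higher genes, Birc5 and Tyms held neither motif and Ccnb1 held CCAAT only. Only higher members with both motifs are printed. The 150 bases before the start are printed for 5 members, 5′ to 3′ on the strand of the gene, with both motifs (or their reverse complements ATTGG and TTCAAA) in capitals.
Top2a, chr11:99024190-99024339, minus strand: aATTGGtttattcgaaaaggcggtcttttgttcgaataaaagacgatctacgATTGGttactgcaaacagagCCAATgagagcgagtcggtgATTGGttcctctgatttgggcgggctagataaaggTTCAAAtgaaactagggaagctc
Ube2c, chr2:164769779-164769928, plus strand: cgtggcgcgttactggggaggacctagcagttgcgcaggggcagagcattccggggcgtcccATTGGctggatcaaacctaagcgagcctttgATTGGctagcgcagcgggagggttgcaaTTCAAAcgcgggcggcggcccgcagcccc
Mki67, chr7:135716380-135716529, minus strand: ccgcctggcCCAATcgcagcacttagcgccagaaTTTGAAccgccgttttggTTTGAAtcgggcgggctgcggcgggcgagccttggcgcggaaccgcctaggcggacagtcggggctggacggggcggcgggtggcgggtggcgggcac
Kif11, chr19:37376232-37376381, plus strand: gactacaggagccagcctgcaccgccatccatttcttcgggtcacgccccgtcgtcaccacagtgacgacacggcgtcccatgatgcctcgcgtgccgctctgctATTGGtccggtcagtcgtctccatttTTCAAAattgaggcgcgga
Cdc20, chr4:118437344-118437493, minus strand: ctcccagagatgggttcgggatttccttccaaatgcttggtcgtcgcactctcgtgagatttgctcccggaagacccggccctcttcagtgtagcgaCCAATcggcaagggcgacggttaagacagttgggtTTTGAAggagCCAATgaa
Top2a has 4 CCAAT boxes in these bases and Ube2c and Cdc20 have 2 each. Plk1, whose difference was within the spread, also held both motifs in its window, so the motifs alone did not separate the members. A match is a run of letters and not a measured site.

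Mki67, which encodes the proliferation marker Ki-67, stood at −0.99, −2.31 and −1.84 at 2 weeks and at 0.45, −0.11, −0.19 and 0.31 at 4 weeks. The untreated arrays stood at −0.66, 0.33 and −0.21, so the 4-week arrays were at the untreated level and the 2-week arrays below it. The difference was 1.83 (standard error 0.35, limma's adjusted p = 0.2), and a second Mki67 probe gave 2.16.

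Top2a, the topoisomerase that untangles replicated chromosomes, gave the largest measured difference of the list, although the 2-week array 2 was not well above background. It stood at −3.31, −5.89 and −4.15 at 2 weeks and at −0.97, −2.66, −2.33 and −1.51 at 4 weeks, a difference of 2.59 (standard error 0.60, limma's adjusted p = 0.283). A second probe, well above background on 1 of the 3 arrays at 2 weeks, gave 2.38. The 2-week arrays were the lowest of all 10, and the 2-week array 2 was the lowest in most genes of the list.

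Ube2c, the ubiquitin carrier of the complex that ends mitosis, stood at −2.53, −3.77 and −2.88 at 2 weeks and within the narrow range of −1.57 to −1.33 at 4 weeks. Its difference was 1.61 (standard error 0.30, limma's adjusted p = 0.18). Cdc20, an activator of the same complex, differed by 1.06 (standard error 0.23), and Cenpf, a kinetochore protein, by 1.54 (standard error 0.36). The groups overlapped in none of these 3 genes.

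Cyclin A2 (Ccna2), which acts in S phase and G2, stood at −2.35, −2.93 and −2.50 at 2 weeks and at −0.98, −1.55, −1.42 and −1.45 at 4 weeks, a difference of 1.24 (standard error 0.22, limma's adjusted p = 0.152). Cyclin B1 (Ccnb1), the mitotic cyclin, differed by 1.21 (standard error 0.45), but it was well above background on only 1 of the 3 arrays at 2 weeks. Birc5 (survivin), of the chromosomal passenger complex, differed by 1.24 (standard error 0.24), and the mitotic motor Kif11 by 1.26 (standard error 0.37), with 1 of its 4-week arrays inside the range at 2 weeks and 1 of its 3 arrays at 2 weeks well above background. Tpx2, a spindle protein, and Tyms, which makes thymidylate for DNA synthesis, differed by 0.74 and 0.66.

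The mitotic kinase Plk1 and the replication clamp Pcna went the other way, with differences of −0.18 and −0.06 that were within the spread. Under median scaling they were 0.10 and 0.22. The Mcm helicase subunits on the list, which load at replication origins, differed by 0.45 to 0.69 and overlapped between the groups.

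**Figure D2:**
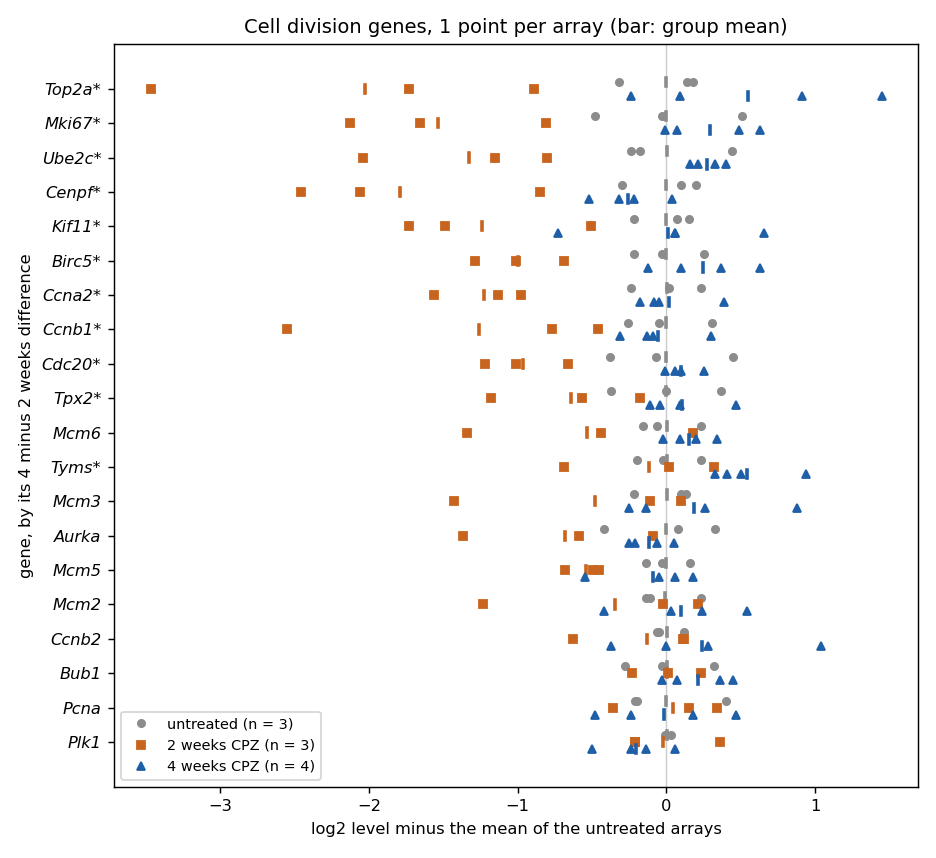
Log2 level of each tested cell division gene minus the mean of its untreated arrays, with 1 point per array, group means as bars and an asterisk for an unadjusted p under 0.05. The orange 2-week squares lay left of the blue 4-week triangles without overlap for 10 of 20 genes, from Top2a (difference 2.59) to Tyms (0.66).

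By the median over the 20 genes, relative to the untreated mean, the 2-week arrays stood at −0.36, −1.26 and −0.66. The 4-week arrays stood at 0.10, −0.04, 0.15 and 0.06, and the untreated arrays at 0.23, −0.01 and −0.22. The 3 groups thus had the order 2 weeks below both others, and the 4-week arrays spread less than the untreated ones. The median difference of the list was 0.79 without the 3 arrays that stood apart and 1.31 within slide 4. It kept its sign under each scaling, between 0.34 (normexp) and 1.01 (quantile normalization). Leaving out each array in turn gave 0.49 to 1.01.

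Outside the list, the genes with the largest differences were ranked among named genes that were well above background on all 7 CPZ arrays and did not overlap between the groups. At an unadjusted p under 0.05, 505 genes met this rule on the higher and 331 on the lower side. Among the 12 largest on the higher side, Mki67, Ube2c and Cenpf were members of the cell division list, and Cdkn3, Ncapg and Cdca5 are cell cycle genes outside it. The phosphatase Cdkn3, which acts on cyclin-dependent kinases, stood at −3.33, −4.32 and −3.55 at 2 weeks and at −1.21, −2.04, −2.20 and −1.70 at 4 weeks, a difference of 1.94 (standard error 0.32, limma's adjusted p = 0.125). Its second probe was well above background on all 4-week and on no 2-week array. The condensin subunit Ncapg differed by 1.90 (standard error 0.39), sororin (Cdca5), which holds sister chromatids together, by 1.79 (standard error 0.39), and the long non-coding RNA Lockd, from next to the cell cycle inhibitor gene Cdkn1b, by 1.78 (standard error 0.40).

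**Figure D3:**
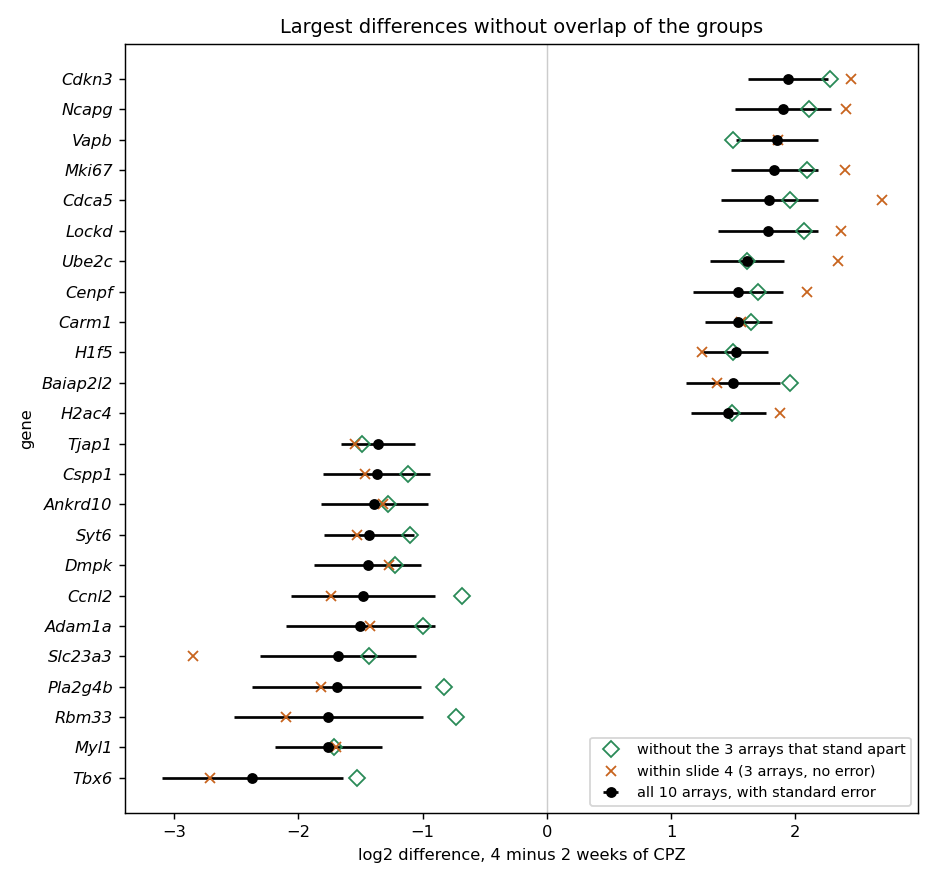
Log2 difference (4 minus 2 weeks) of the 12 largest differences in each direction, with the standard error from all 10 arrays (black), the value without the 3 arrays that stood apart (green diamonds) and the value within slide 4 (orange crosses). Cell cycle genes such as Cdkn3 (2.28) and Mki67 (2.09) kept their size without the 3 arrays, whereas Rbm33 (−0.73) and Ccnl2 (−0.68) lay nearer to 0.

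Hmmr, the hyaluronan-mediated motility receptor of the mitotic spindle, and Shcbp1, a protein of the cytokinesis midbody, are named here after their values were seen. Hmmr stood at −4.94, −4.69 and −4.98 at 2 weeks, on no array well above background, and at −2.95, −3.51, −3.10 and −3.53 at 4 weeks. It was at least 2.91-fold higher at 4 weeks (limma's adjusted p = 0.0729). Shcbp1 had 2-week levels from −4.19 to −3.93 and 4-week levels from −2.93 to −2.45, a difference of 1.42 (standard error 0.20, limma's adjusted p = 0.0729). Both were near the threshold of the test without passing it.

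Histone genes, which package newly made DNA and are mostly transcribed in S phase, supplied another 2 of the 12. The linker histone H1f5 stood at −0.76, −0.57 and −1.16 at 2 weeks and at 0.73, 0.74, 0.67 and 0.61 at 4 weeks, a difference of 1.52 (standard error 0.26, limma's adjusted p = 0.138). H2ac4 had 2-week levels from 2.21 to 2.97 and 4-week levels from 4.06 to 4.23, a difference of 1.46 (standard error 0.30). Over all 29 tested histone genes, taken by symbol after the data were seen, 14 (48.3%) were higher at an unadjusted p under 0.05 and 0 were lower, with a median difference of 0.55. Without the 3 arrays that stood apart, 9 were higher and 2 lower at that level, with a median of 0.43. All 6 tested H2bc genes lay below 0, as did H1f2 and H1f8 (−0.76 and −0.55), and all 8 of these overlapped between the groups. The 6 H2bc genes turned above 0 when the slide was fitted as a fixed block, where 26 of the 29 histone genes were higher, and H2bc21 and H2bc6 did so under median scaling (0.07 and 0.11). H1f8 was at 0.07 without the 3 arrays. Members of a histone family have nearly the same sequence, so the probes may read more than 1 of them.

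Vapb, a membrane protein of the endoplasmic reticulum, differed by 1.85 and the arginine methyltransferase Carm1 by 1.54, with no overlap between the groups. These 2 rest on a single probe each. Another 2 probes of Vapb differed by 0.22 and 0.14, and another probe of Carm1 by −0.03. Baiap2l2, which shapes membrane protrusions, differed by 1.50 (standard error 0.38).

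Of the 18 tested targets of p53 and genes of apoptosis, 12 were lower and 6 higher at 4 weeks. At an unadjusted p under 0.05, 4 (22.2%) were lower, against 6.38% of all genes, and every 4-week array lay below every 2-week array for 0 of the 18, against 9.41% of all genes. The median was −0.55. Cdkn1a, the p21 inhibitor of cyclin-dependent kinases, stood at 3.61, 2.28 and 3.46 at 2 weeks and at 1.19, 0.45, 3.26 and 0.99 at 4 weeks. Untreated arrays stood between −0.55 and 0.39. Array 3 of the 4-week group kept a level like that of 2 weeks, and the other 3 arrays lay below all 2-week arrays, so the groups overlapped.

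The difference of Cdkn1a was −1.64 (standard error 0.64, limma's adjusted p = 0.454). Mdm2, the ubiquitin ligase that is both a target and an inhibitor of p53, stood at 1.71, 0.66 and 1.20 at 2 weeks and at −0.18, −0.27, 0.76 and −0.24 at 4 weeks, a difference of −1.18 (standard error 0.32, limma's adjusted p = 0.34). A second Mdm2 probe differed by −0.83. The death receptor Eda2r, well above background on 2 of the 4 arrays at 4 weeks and overlapping between the groups, differed by −1.90 (standard error 0.80) and the BH3-only protein Bcl2l11 (Bim) by −0.91 (standard error 0.30). The median of the list kept its sign under each scaling, from −0.55 to −0.13, and was −0.58 without the 3 arrays that stood apart but −0.10 within slide 4. With the slide as a fixed block 8 of the 18 were higher. The median was −0.25 without the 2-week array 3, −0.35 without the 4-week array 2 and −0.88 without the 2-week array 2.

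By the median over the 18 genes, relative to the untreated mean, the 2-week arrays stood at 1.36, 0.39 and 1.26. The 4-week arrays stood at 0.49, 0.22, 1.18 and 0.25, and arrays 1 and 3 lay within the range of 2 weeks. Both times of CPZ thus lay above the untreated arrays, which reached 0.17 at most.

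**Figure D4:**
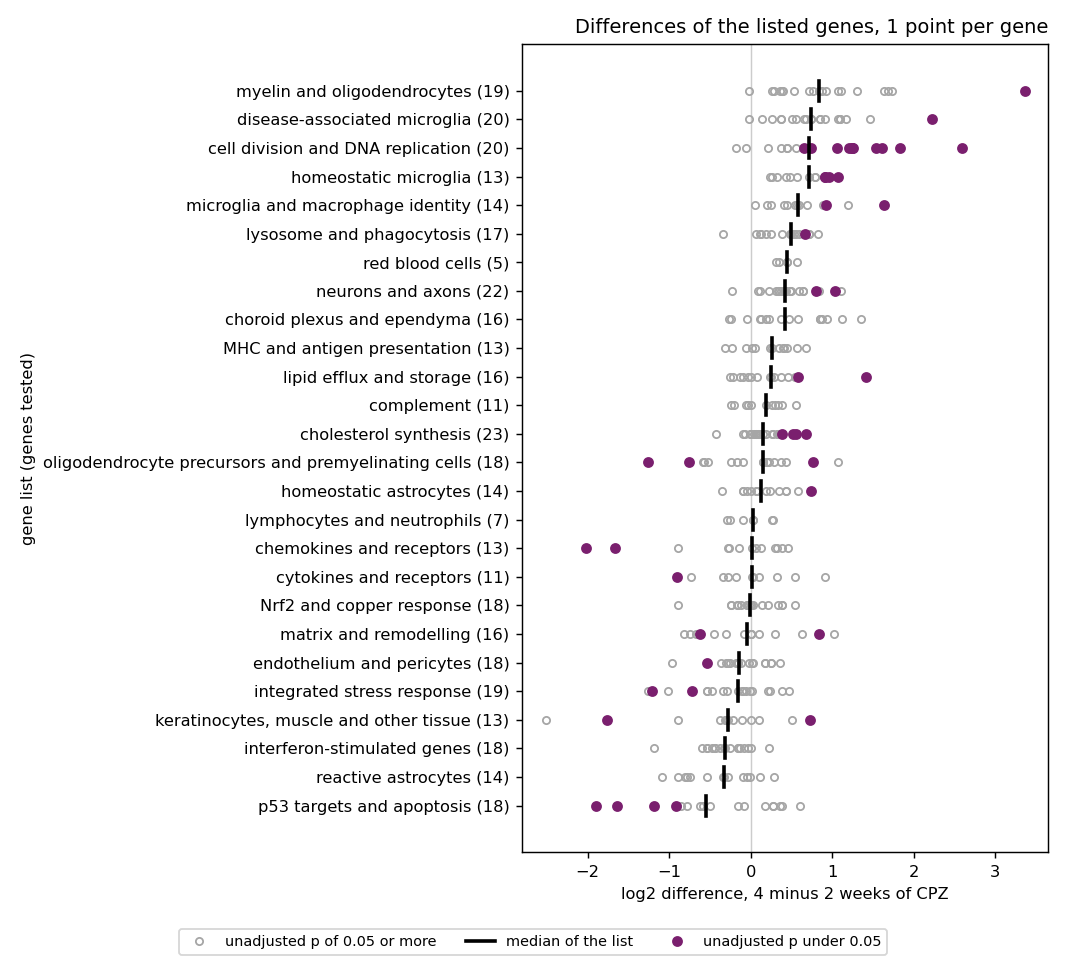
Log2 difference (4 minus 2 weeks) of each tested member of the 26 gene lists, filled where the unadjusted p was under 0.05, with the median of each list as a black bar. Cell division (median 0.72) had 11 filled points to the right, and p53 targets and apoptosis (median −0.55) had 4 to the left.

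The genes of microglia were higher at 4 weeks, in small steps. All 13 tested genes of the homeostatic list, which mark resting microglia, were higher against 48.1% of all genes, and 4 (30.8%) were so at an unadjusted p under 0.05, with a median of 0.71. For the same 4 genes every 4-week array lay above every 2-week array. P2ry12, the purinergic receptor that guides microglial processes, stood at 0.11, −0.97 and −0.52 at 2 weeks and at 0.33, 0.74, 0.35 and 0.39 at 4 weeks, a difference of 0.91 (standard error 0.30, limma's adjusted p = 0.412). The related receptor P2ry13 differed by 0.96 (standard error 0.36), the transcription factor Sall1, which holds the microglial identity, by 0.91 (standard error 0.25), and the fructose transporter Slc2a5 by 1.07 (standard error 0.31). Tmem119, another marker, differed by 0.32 (standard error 0.30) and overlapped.

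The 2-week array 2 was the lowest in these genes. Relative to the untreated mean, the median of the homeostatic list stood at 0.40, −0.40 and 0.29 at 2 weeks and at 0.52, 0.59, 1.20 and 0.63 at 4 weeks. Without that array, the median difference was 0.27.

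Genes of activated phagocytes spread more widely. All 14 tested identity genes of microglia and macrophages and 19 of 20 genes of the disease-associated state were higher, with medians of 0.58 and 0.74. Only 2 and 1 of them reached an unadjusted p under 0.05. Without the 3 arrays that stood apart 5 and 7 did, with medians of 0.70 and 0.74. Without the 2-week array 2 the medians were 0.28 and 0.45, and without the 4-week array 3 they were 0.38 and 0.47. In both lists, 0 genes separated the groups. Aif1 (Iba1), the calcium-binding protein used to stain microglia, stood at 3.09, 1.80 and 3.23 at 2 weeks and at 4.00, 3.10, 3.91 and 3.53 at 4 weeks, a difference of 0.93 (standard error 0.39). Osteopontin (Spp1), a secreted protein of activated phagocytes, stood at 1.71, 0.17 and −0.56 at 2 weeks and at 4.39, −0.14, 3.03 and 3.36 at 4 weeks. Array 2 of the 4-week group stayed at the 2-week level, and the difference was 2.22 (standard error 0.97, limma's adjusted p = 0.47). The integrin Itgam (CD11b) differed by 1.63 (standard error 0.72), and Cst7, a cystatin of the disease-associated state, by 1.46 (standard error 0.69).

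Of the genes of lysosomes and phagocytosis, 16 of 17 were higher, with a median of 0.50, and Gas6, the ligand of the TAM receptors, was the only one at an unadjusted p under 0.05. The median was 0.20 without the 2-week array 2 and 0.25 without the 4-week array 3. Gas6 stood at 4.40, 3.74 and 3.72 at 2 weeks and at 4.65, 4.41, 4.95 and 4.48 at 4 weeks, a difference of 0.67 (standard error 0.24). Apoc1, an apolipoprotein of the lipid efflux list, differed by 1.41 (standard error 0.62) with overlap. MHC and complement genes had medians of 0.26 and 0.19, and 0 of 13 and 0 of 11 tested members reached an unadjusted p under 0.05. Without the 3 arrays that stood apart these medians were −0.03 and −0.09, with the slide as a fixed block 0.76 and 0.51, and within slide 4 0.74 and 0.62.

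The tested chemokine genes went both ways, 7 higher and 6 lower, as did the cytokine genes, 6 higher and 5 lower, and 2 and 1 of them were lower at an unadjusted p under 0.05. With the slide as a fixed block 11 of the 13 chemokine genes were higher, with a median of 0.49. The chemokine Ccl7, which draws monocytes, stood at −2.67, −4.56 and −2.78 at 2 weeks and was well above background on no 4-week array, so it was at least 2.15-fold lower (limma's adjusted p = 0.354). Ccl2, its neighbour with the same receptor, stood at −0.63, −2.73 and 0.26 at 2 weeks and at −2.19, −3.91, −1.81 and −2.92 at 4 weeks, a difference of −1.67 (standard error 0.71). The 2-week array 2 lay within the 4-week range for both, though a second Ccl7 probe, also well above background on no 4-week array, had no overlap. The other 11 tested chemokine genes differed by less, and the list had a median of 0.02. Tnfrsf12a, the receptor for the cytokine TWEAK, differed by −0.90 (standard error 0.38), with the 4-week array 3 within the range of 2 weeks. The cytokine Il1b, well above background on 3 of the 4 arrays at 4 weeks, differed by −0.73 (standard error 0.34) with overlap.

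In the integrated stress response, the program that slows translation and induces amino acid genes, 14 of 19 tested genes were lower, with a median of −0.15 that turned to 0.13 under median scaling. Without the 3 arrays that stood apart the median was −0.44, with 7 genes in place of 2 lower at an unadjusted p under 0.05. Slc7a11, the cystine transporter, differed by −1.21 (standard error 0.49), and Ppp1r15a (Gadd34), which restores translation, by −0.72 (standard error 0.31). Atf3, an early stress transcription factor, stood at 0.47, −1.17 and 0.64 at 2 weeks and at −1.74, −1.96, 0.30 and −1.71 at 4 weeks, a difference of −1.26 (standard error 0.62). As with Cdkn1a and Mdm2, the 4-week array 3 was apart from the other 3 of its group.

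Genes of reactive astrocytes (12 of 14 lower, median −0.33) and interferon-stimulated genes (16 of 18 lower, median −0.32) had 0 members at an unadjusted p under 0.05. Ifit2, an interferon-induced inhibitor of translation, was the lowest of the second list at −1.19 (standard error 0.54), and its level at 2 weeks rested on array 2, at 1.42 against −1.02 and −0.80. Another Ifit2 probe differed by 0.17. Both list medians were near 0 under median scaling (−0.05 and −0.04) and above 0 with the slide as a fixed block (0.12 and 0.28), but below 0 with it as a random block (−0.29 and −0.13). Without the 2-week array 3 the interferon median was 0.05, without the 2-week array 1 the astrocyte median was −0.06, and without the 2-week array 2 the interferon and astrocyte medians were −0.73 and −0.79.

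The median level of the myelin genes differed more between arrays of one time than between the times. Mbp (myelin basic protein) stood at 6.64, 3.74 and 5.55 at 2 weeks and at 3.96, 7.16, 7.34 and 6.17 at 4 weeks, against 7.95 to 8.99 in untreated mice. Its difference of 0.84 (standard error 0.89, limma's adjusted p = 0.704) was within the spread, and it was −0.25 without the 3 arrays that stood apart. The median of the 19 tested genes was 0.84 with all arrays, 0.13 without the 3 arrays that stood apart, also 0.13 without the 2-week array 2, 1.51 without the 2-week array 1 and 2.42 within slide 4.

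Klk6, a secreted serine protease of mature oligodendrocytes, had the largest measured difference of the list, but it was well above background on only 1 of the 3 arrays at 2 weeks, so its size is uncertain. It stood at −3.67, −5.89 and −6.83 at 2 weeks and at −3.46, −1.29, −1.33 and −2.34 at 4 weeks, against −0.08 to 1.00 in untreated mice, a difference of 3.36 (standard error 0.77, limma's adjusted p = 0.28). The groups did not overlap.

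Of 18 tested genes of oligodendrocyte precursors and premyelinating cells, 10 were higher and 8 lower, with a median of 0.15. The median was −0.18 without the 2-week array 2, −0.17 without the 4-week array 3 and −0.22 without the 3 arrays that stood apart, but 0.63 with the slide as a fixed block and 0.66 within slide 4. Bmp4, a factor that holds back oligodendrocyte differentiation, differed by −0.76 (standard error 0.24). Myrf, the transcription factor that switches on myelin genes, differed by −1.26 (standard error 0.26), with every 4-week array below every 2-week array. A second Myrf probe was well above background on 0 of 3 arrays at 2 weeks and 2 of 4 at 4 weeks.

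Cholesterol, a main lipid of myelin, is made in the brain itself. Of the 23 tested genes of its synthesis 19 were higher, with a median of 0.15 (−0.08 without the 3 arrays that stood apart), and 4 (17.4%) were so at an unadjusted p under 0.05. Hmgcs1, which makes the precursor of mevalonate, stood at 3.23, 3.32 and 3.32 at 2 weeks and at 3.80, 4.35, 3.77 and 3.98 at 4 weeks. Untreated arrays stood between 4.65 and 5.01, so both times lay below them and the 4-week arrays nearer to them. Its difference was 0.68 (standard error 0.19, limma's adjusted p = 0.354), and those of Cyp51 and Acat2 were 0.56 and 0.39. Another 2 probes of Cyp51 both gave 0.07.

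Of 22 tested genes of neurons and axons, 21 were higher, with a median of 0.42, and 2 (9.1%) were so at an unadjusted p under 0.05. The median was 0.06 without the 2-week array 1, 0.82 without the 2-week array 2, 0.12 within slide 4 and 0.21 with the slide as a fixed block. Gap43, a growth-associated protein of axons, stood at 0.29, 0.77 and 0.89 at 2 weeks and at 1.95, 1.86, 1.04 and 1.91 at 4 weeks, a difference of 1.04 (standard error 0.26, limma's adjusted p = 0.312). Gad1, which makes the transmitter GABA, differed by 0.80 (standard error 0.29) with overlap, and by 0.18 on a second probe. Among astrocyte genes, S100b differed by 0.74 (standard error 0.32). Among genes of the matrix and of vessels, the proteoglycan Bgn differed by 0.84 (standard error 0.27), the basement membrane collagen Col4a1 by −0.62 (standard error 0.23) and the lipid transporter Mfsd2a of the blood-brain barrier by −0.53 (standard error 0.21). The groups did not overlap for S100b, Bgn, Col4a1 and Mfsd2a, but they did on a second Col4a1 probe (−0.40). These genes were the only members of their lists at an unadjusted p under 0.05. At that level 1 of 14 homeostatic astrocyte genes (7.1%) was higher and 1 of 18 endothelial genes (5.6%) was lower. Of 16 matrix genes, 1 (6.2%) was higher and 1 lower. These shares were near those of all genes, 4.9% higher and 6.4% lower.

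Genes of the choroid plexus and ependyma, tissues of the ventricles, varied widely between arrays of one group. The median of the 16 choroid plexus and ependyma genes, relative to the untreated mean, stood at 1.20, −1.05 and −0.07 at 2 weeks and at −1.83, 1.11, 2.79 and 0.23 at 4 weeks. The median difference of the list was 0.42 with all arrays, −1.05 without the 3 arrays that stood apart and 2.12 within slide 4. Ttr, the defining choroid plexus gene, ranged from −2.15 to 4.19 within the 4-week group and was well above background on all 10 arrays. The median of the myelin genes had the same lowest array at 4 weeks, array 1, with the other 3 at −1.59, −1.58 and −2.64. On the 2-week array 2 the choroid plexus, myelin and microglia lists were all lowest of their group, and the neuron list highest, at 0.38 against −1.13 and −0.32. The part of dissection in these results was not tested. The remaining lists had medians of 0.25 for lipid efflux and storage, 0.13 for homeostatic astrocytes, 0.02 for cytokines, −0.01 for the Nrf2 and copper response, −0.04 for matrix, −0.14 for endothelium and −0.28 for keratinocyte, muscle and other genes. These moved with the setting. Without the 3 arrays that stood apart they were, in the same order, −0.05, −0.14, −0.13, −0.20, −0.55, −0.39 and −0.23, and with the slide as a fixed block they were 0.54, 0.45, 0.02, 0.47, 0.35, 0.20 and 0.04. The 5 tested red blood cell genes had a median difference of 0.45, and 7 of 18 lymphocyte and neutrophil genes were tested, with a median of 0.03.

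**Figure D5:**
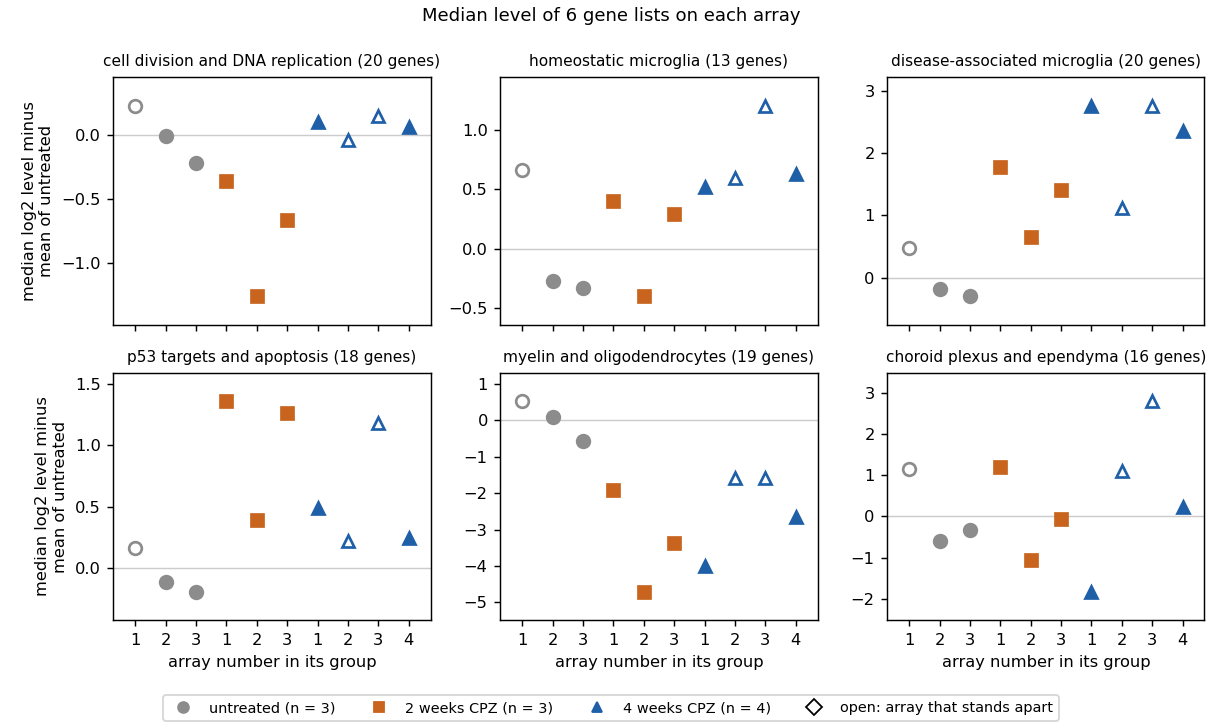
Median log2 level of 6 gene lists on each array, relative to the mean of the untreated arrays (open symbols are the 3 arrays that stood apart). For cell division, all 4-week arrays (−0.04 to 0.15) lay above all 2-week arrays (−1.26 to −0.36). For choroid plexus and ependyma, the 4-week arrays alone spanned −1.83 to 2.79.

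On the lower side, the 12 largest differences depended more on which arrays were used. Tbx6, a T-box transcription factor of the early mesoderm, stood at 0.34, −0.22 and −0.13 at 2 weeks and at −1.12, −3.91, −2.52 and −1.94 at 4 weeks, a difference of −2.37 (standard error 0.73, limma's adjusted p = 0.389). The untreated array 1, at −2.70, was low as well, against −0.01 and −0.92 in the other untreated arrays. Without the 3 arrays that stood apart, the difference was −1.53.

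The cyclin and splicing factor Ccnl2 behaved alike, at 3.45, 3.18 and 2.91 at 2 weeks, 2.78, 0.67, 1.14 and 2.22 at 4 weeks and 1.06 on the untreated array 1. Its difference changed from −1.48 to −0.68 without the 3 arrays. That of Rbm33, an RNA-binding protein, changed from −1.76 to −0.73 and that of the phospholipase Pla2g4b from −1.69 to −0.83. The metalloprotease gene Adam1a differed by −1.50 and was nearer to 0 without them. All 5 were low on the same 3 arrays. Second probes differed by −1.82 for Ccnl2 (still −1.42 without the 3 arrays), −1.13 for Pla2g4b, −0.53 for Rbm33 and −0.13 for Adam1a.

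The other 7 genes moved less when these arrays were left out, although Ankrd10, Dmpk and Cspp1 were also low on the untreated array 1, at −1.91, −1.60 and −3.06. The fast muscle myosin light chain Myl1 had 2-week levels of −1.37, −1.66 and −2.84 and 4-week levels from −4.12 to −3.20, a difference of −1.76 (standard error 0.43), or −1.71 without the 3 arrays. It was well above background on 1 of 3 untreated arrays. Ankrd10 stood within −0.13 to −0.05 at 2 weeks and within −1.64 to −1.27 at 4 weeks, a difference of −1.39 (standard error 0.43), and the tight junction protein Tjap1 within −1.07 to −0.74 and −2.45 to −1.95, a difference of −1.36 (standard error 0.30). The kinase Dmpk, the centrosome protein Cspp1, the synaptotagmin Syt6 and the transporter Slc23a3 differed by −1.44, −1.37, −1.43 and −1.68, and by −1.22, −1.12, −1.10 and −1.43 without the 3 arrays. Second probes were nearer to 0, at −0.50 for Tjap1, −0.38 for Dmpk and −0.05 for Cspp1. None of the 12 had an adjusted p under 0.252.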

How the data were processed

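RNA of the corpus callosum had been hybridised to Agilent 4x44K arrays. The authors deposited the background-subtracted intensity of each spot (Feature Extraction 11.0.1.1 per the file headers) and a table of processed log2 values. Of the 16 table columns, 14 matched an array recorded under another sample (r of at least 0.9993, next best 0.88). Arrays were assigned through the table, as the submitters' column titles give groups. Probes were named through RefSeq on GRCm38.p6 (27479 of 41174). Signals were set relative to the 75th percentile, and a probe was tested if well above background on every array of 1 group. Limma 3.58.1 in R 4.3.3 fitted the 3 groups (10 arrays, 7 residual degrees of freedom), with Benjamini-Hochberg adjustment over all probes. A gene is given by its brightest probe. The comparison and the 26 gene lists were chosen with earlier results of these data known. The rule for named genes took the called genes, the 12 largest differences per direction among genes well above background on all 7 CPZ arrays and without overlap, the first members and the extremes of each list, and genes the study names. Other list members, mostly those at an unadjusted p under 0.05, were named after their values were seen. Normexp used the median foreground signal, in place of the planned mean, with an offset of 50. The number of arrays limits the precision. Some list members are not reported here by name. The fit was tested on simulated data. Replicate numbers did not pair the arrays.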

Additional observations from a re-analysis of the deposited data

Results flagged for a closer look

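Among the 4 arrays at 4 weeks, 103 values were tested for 1 array far from the others, and 12 went beyond the limit. Chance flags about 1 in 20 independent values. The values here share the same 4 arrays, and most flags fell on array 3, so the count cannot be set against that rate. The 4-week array 3 was far above the other 3 for Atf3 (0.30), Bcl2l11 (−0.54), Bmp4 (−2.58), Mdm2 (0.76) and Tnfrsf12a (0.91), and far below them for Gap43 (1.04). It was also far above them in the median level of the lists of homeostatic microglia (1.20), the integrated stress response (1.57) and interferon-stimulated genes (2.57). The 4-week array 2 was far from the others for P2ry12 (0.74) and Tmem119 (1.30), and the 4-week array 4 for Myrf (−4.02).

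The 6 remyelination arrays entered no comparison, since the labels do not separate their times. In 9 lists all 6 lay above all 3 untreated arrays. Relative to the mean of the untreated arrays, the lowest remyelination array had a median log2 level of 1.43 for microglia and macrophage identity, 1.19 for disease-associated microglia, 0.66 for lysosome and phagocytosis, 1.28 for reactive astrocytes, 1.75 for interferon-stimulated genes, 1.24 for MHC and antigen presentation, 1.46 for chemokines, 0.69 for cytokines and 1.59 for complement.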

How the results depend on the processing

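The number of called genes depended on the setting. Against 3 genes, the count was 24 with the 2 groups alone, 5 with median scaling, 5 with no filter and 8 without the 3 arrays that stood apart (chosen after seeing the data). It was 0 with a filter on all 10 arrays, with normexp, with the slide as a fixed block, with the replicate block, with the methods' test and with the recorded sample of each scanner file, where limma or the methods' test counted 2259, 1912, 6189, 1301, 1502 and 638 probes at an unadjusted p under 0.05. Array weights gave 2392, but their estimate did not converge. Leaving out 1 array gave 0 to 36 genes, with 36 without the untreated array 1, 11 without the untreated array 3, 1 without the 4-week array 2 and 0 without the untreated array 2, the 2-week array 1 or 2, or the 4-week array 3 or 4. The cause was not tested. Same-numbered arrays had deviations correlated by −0.08, 0.11 and 0.21, so the numbers pair nothing.

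The cell division genes at an unadjusted p under 0.05 numbered 8 to 15 under the alternatives for which they were counted (not the methods' test or the recorded sample of each scanner file), and their median was 1.31 within slide 4. Median scaling moved the median of all probes from −0.007 to 0.275. Of 1764 values for 76 named genes, 18 changed sign, in 7 genes. This tally left out the H2bc genes and H1f8, whose changes of sign are given above. Other probes gave −0.03 for Carm1, 0.17 for Ifit2, −0.20 for Mbp and 0.21 for Myrf, whose other probe was well above background on no 2-week array. Without the 3 arrays that stood apart, Mbp was at −0.25 and Ttr at −1.03. Pcna was at 0.22 with median scaling, 0.01 with the replicate block, 0.34 and 0.08 with the slide as a fixed and a random block, 0.33 within slide 4 and −0.26 to 0.10 without 1 array. Plk1 was at 0.06 with array weights, 0.10 with median scaling and −0.28 to 0.01 without 1 array, and Ttr at −0.09 to 2.03 without 1 array. Array weights took 42 genes past the threshold.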
